A study of Arabidopsis thaliana with 6 samples.

Results

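The epidermis of the Arabidopsis root was set against the 4 other sorted cell types of the study. The comparison used 1 epidermis library of 6 libraries in all and covered the 33554 loci listed in each. The question was which genes stand above or below every other cell type in the outer layer. Cells were sorted by green fluorescence from roots of 6-day-old Arabidopsis thaliana seedlings, grown on 1x MS medium with sucrose under long days. Epidermis came from the line ProWER:GFP, cortex from ProAT1G09750:GFP, endodermis from ProSCR:GFP line1 and ProSCR:GFP line2, stele from ProWOL:GFP and columella root cap from the PET111 enhancer trap line. No treatment or mutant is labelled, and every library was polyA-selected messenger RNA from sorted cells. Only endodermis has 2 libraries, so no epidermis value has a replicate check and no p-value is given. Values are FPKM, in which sequenced fragments are divided by transcript length and by library size. Without read numbers, which were not given in the sources used here, a value carries no counting interval.

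The root epidermis is the layer in contact with the soil. Its files of cells that will form hairs alternate with files of hairless cells, a pattern set by the MYB factor WER and its partners. The layer takes up water and mineral nutrients and meets microbes first. The WER promoter is also known to be active in the lateral root cap, which shares stem cells with the epidermis.

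The label was checked against 3 markers. WER (AT5G14750), EXPA7 (AT1G12560), a hair-cell expansin, and RSL4 (AT1G27740), a bHLH factor that drives hair growth, were all highest in epidermis. Summed over these markers the level was 359 FPKM in epidermis and 4.43 to 15.1 in the other libraries. Markers of other cell types were also present. The lateral root cap and root cap list summed to 426 FPKM in epidermis, 939 in columella root cap and 17.7 to 77.9 in cortex, endodermis and stele. Its members SMB (AT1G79580), BRN1 (AT1G33280) and BRN2 (AT4G10350), NAC factors of root cap maturation, were at 32.4, 47.8 and 34.4 FPKM in epidermis and at 98.2, 66.8 and 31.6 in columella root cap. The endodermis list summed to 35.1 FPKM in epidermis against 7533 and 626 in endodermis lines 1 and 2. The stele list summed to 40.7 against 777 in stele, of which WOL (AT2G01830), the cytokinin receptor of the stele reporter, made up 30.7. The cortex list summed to 8 against 59.7 in cortex. No marker of the cortex, endodermis or stele lists was listed at 0 in epidermis. In sorted bulk samples, more cells of a type and more RNA per cell cannot be told apart.

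A gene was measured with at least 1 FPKM in any library, which held for 19671 loci. It was called enriched when its epidermis value, as log2(FPKM + 1), stood at least 1 unit (2-fold) above every other library with at least 5 FPKM. It was called depleted when it stood as far below every other library and each of those held at least 5 FPKM. Of the measured genes 878 were enriched (4.46%) and 190 depleted (0.966%). ERDL6 (AT1G75220), a sugar transporter, lay just inside the rule at 163 FPKM against 80.5 in endodermis line 1. AHA2 (AT4G30190), a plasma membrane proton pump, lay just outside it at 310 against 161 in cortex. Differences given for lists are the epidermis value minus the mean of the 4 other cell types on the log2(FPKM + 1) scale, with the endodermis lines averaged first. The median difference of all measured genes was -0.39, and each list median is to be read against it. With size factors this median was -0.07, and enriched genes made up 93% of all called in place of 82.2%.

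Enriched genes carried 11.4% of all FPKM in the epidermis library. They carried 1.62% in columella root cap, 1.37% in endodermis line 1, 1.16% in cortex, 0.579% in endodermis line 2 and 0.388% in stele. The rule of size itself sets these shares apart. The highest of the 5 other libraries for an enriched gene was endodermis line 1 in 384 genes, or 43.7%, where the share over all measured genes was 18.4%. It was columella root cap in 260 genes (29.6% against 27.9%) and cortex in 196 (22.3% against 15.7%). Stele was the highest other library for 26 enriched genes (2.96% against 29.2%) and endodermis line 2 for 12 (1.37% against 8.74%). Across all measured genes Spearman's rho with epidermis was 0.607 for stele, 0.707 for endodermis line 2 and 0.77 to 0.782 for the other 3 libraries, a description across genes.

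**Figure D1:**
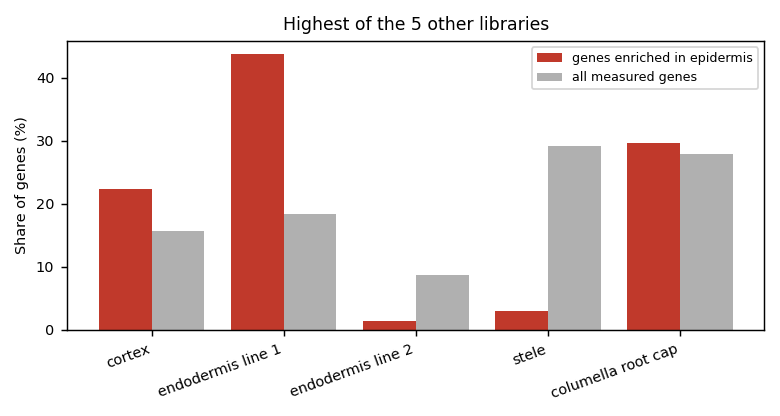
Share of genes (%) for which each of the 5 other libraries held the highest value, for the 878 genes enriched in epidermis (red) and for all 19671 measured genes (grey). Endodermis line 1 held the highest other value for 43.7% of enriched genes against 18.4% of all genes, and stele for 2.96% against 29.2%.

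Most genes of the hair growth list are known hair markers. Of 13 measured members 12 were enriched, with a median difference of 5.11, and all 13 stood above every other library, as 14.3% of all measured genes did. RSL3 (AT2G14760) missed the 5 FPKM minimum, at 1.55 FPKM against at most 0.0321. The promoters of 4 members are printed here because each holds a match to the root hair element, a sequence motif known from hair-cell promoters. Each is the 250 bases before the gene start in the RefSeq annotation of TAIR10.1, on the plus strand, with genes matched by locus identifier. Capitals mark the match. EXPA7 is at chr1:4276255-4276504, EXPA18 at chr1:23331313-23331562, PRP1 at chr1:20504651-20504900 and PRP3 at chr3:23182472-23182721.
EXPA7: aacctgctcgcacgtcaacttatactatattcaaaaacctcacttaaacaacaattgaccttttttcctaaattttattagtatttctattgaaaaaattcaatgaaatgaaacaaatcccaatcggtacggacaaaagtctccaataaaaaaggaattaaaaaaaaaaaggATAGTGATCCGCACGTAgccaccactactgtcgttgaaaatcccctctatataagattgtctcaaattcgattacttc
EXPA18: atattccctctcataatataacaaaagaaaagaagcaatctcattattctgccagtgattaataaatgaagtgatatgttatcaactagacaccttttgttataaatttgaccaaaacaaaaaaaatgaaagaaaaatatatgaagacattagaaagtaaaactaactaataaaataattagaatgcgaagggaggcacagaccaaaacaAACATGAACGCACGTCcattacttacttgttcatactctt
PRP1: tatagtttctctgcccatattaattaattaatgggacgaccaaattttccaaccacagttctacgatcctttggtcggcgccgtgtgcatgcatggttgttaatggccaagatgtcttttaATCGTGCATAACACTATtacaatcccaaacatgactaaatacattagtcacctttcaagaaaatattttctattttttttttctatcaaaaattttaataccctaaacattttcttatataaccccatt
PRP3: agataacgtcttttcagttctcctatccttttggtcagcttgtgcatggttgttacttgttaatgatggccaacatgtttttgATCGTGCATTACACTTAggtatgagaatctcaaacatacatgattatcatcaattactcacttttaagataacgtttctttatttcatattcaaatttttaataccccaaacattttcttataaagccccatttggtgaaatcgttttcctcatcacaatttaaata
The match lay on the plus strand in both expansin promoters, 78 bases before the start in EXPA7 and 40 in EXPA18. It lay on the minus strand in the promoters of the proline-rich wall proteins, 129 bases before the start in PRP1 and 167 in PRP3. EXPA18 (AT1G62980) was at 106 FPKM in epidermis, 1.37 in cortex, 3.19 and 0.654 in endodermis lines 1 and 2, 1.25 in stele and 0.546 in columella root cap. PRP1 (AT1G54970) was at 156, 1.97, 5.04, 1.49, 2.07 and 0.867 FPKM in the same order. Endodermis line 1 was the highest of the other libraries for both genes.

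Searched on both strands in windows of that length, the root hair element was found before 25 of 867 enriched genes with a window (2.88%), 147 of 19292 measured genes (0.762%) and 2 of 188 depleted genes (1.06%). Beyond the hair list, enriched genes with a match included LRX1 (AT1G12040), an extensin with leucine-rich repeats, ROPGEF4 (AT2G45890) and ROPGEF10 (AT5G19560), activators of ROP GTPases, and the peroxidase RHS18 (AT5G22410). These 4 genes were at 136, 45.9, 15.2 and 71 FPKM in epidermis, and RHS18 is itself annotated as root hair specific. The element is known from hair-cell promoters and the enriched set holds known hair genes, so its share is not independent of them. The W-box, the motif bound by WRKY factors (TTGACC or TTGACT), was found before 37.5% of enriched, 28.2% of measured and 23.4% of depleted genes. The MYB core (AACNG or CNGTTG) was found before 63.8% of enriched and 71.7% of measured genes, and the E-box bound by bHLH factors (CANNTG) before 56.3% of both. Motifs can overlap one another and one set holds the other, so the shares are descriptions.

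Cell fate regulators were less uniform than hair growth genes. Of 14 measured members 3 were enriched, 8 stood above every other library and the median difference was 1.65. TRY (AT5G53200), a mobile MYB inhibitor of hairless fate, was at 4 FPKM in epidermis against at most 0.968, under the 5 FPKM minimum. CPC (AT2G46410), its relative, was at 33.1 FPKM in epidermis and 39.6 in endodermis line 1, and so lay inside the range of the others. TTG1 (AT5G24520), a WD40 partner of the MYB factors, was at 22.1 FPKM against 15.6 to 31.4. JKD (AT5G03150), a zinc finger protein of the ground tissue that acts on epidermal pattern from beneath, was at 1.47 FPKM in epidermis and 66.3 in cortex.

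Genes known from the shoot epidermis were mixed. Of 7 measured protoderm regulators none was enriched, 1 was depleted and the median difference was -0.50. Over all measured genes 4.46% were enriched, 0.966% were depleted and the median was -0.39. Cuticle genes had 3 of 9 measured members enriched and a median of -0.26, which was 0.40 without endodermis line 1 and 2.44 over members with at least 5 FPKM in some library. The enriched members were CYP86A2 (AT4G00360), a fatty acid hydroxylase, at 17.8 FPKM against at most 1.06, GPAT8 (AT4G00400), an acyltransferase of cutin synthesis, at 8.97 against 3.24, and LTPG1 (AT1G27950), a lipid transfer protein, at 10.6 against 4.28. GPAT4 (AT1G01610), a relative of GPAT8, was at 0.114 FPKM in epidermis and 6.55 in endodermis line 1. Genes of lipid metabolism outside the list were higher, chosen here after their values were seen. CER4 (AT4G33790), a reductase that makes primary alcohols, was at 48.4 FPKM in epidermis, 0.623 in cortex, 0.949 and 0.138 in endodermis lines 1 and 2, 0.346 in stele and 0.226 in columella root cap. KCS5 (AT1G25450), an enzyme of fatty acid elongation, was at 30.8 FPKM against at most 2.07. AT3G06460, annotated in the GNS1/SUR4 membrane protein family, was at 151 FPKM against at most 2.23. Suberin genes, which mark the endodermal barrier, had no enriched member among 6 measured and a median of -0.41, near that of all measured genes. With 4.46% of all measured genes enriched, none among so few members says little about a list. Phenylpropanoid and flavonoid genes had none among 10 and a median of -1.19.

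**Figure D2:**
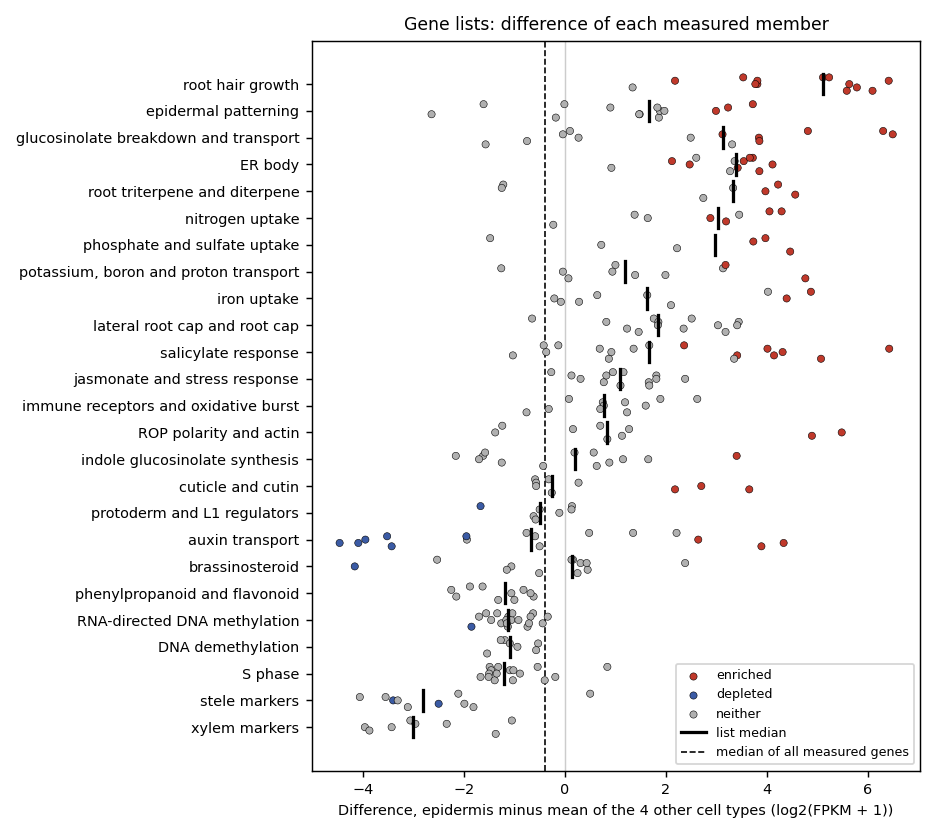
Difference of each measured member of the gene lists shown, as epidermis minus the mean of the 4 other cell types on the log2(FPKM + 1) scale; each point is a gene, the short bar is the list median and the dashed line is the median of all measured genes (-0.39). Hair growth (5.11), ER body (3.39), triterpene and diterpene (3.33), glucosinolate breakdown (3.12) and nitrogen uptake (3.04) lie furthest right. Xylem (-3.01) and stele (-2.81) markers lie furthest left.

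Nutrient uptake genes were high in epidermis for nitrogen, phosphate and sulfate. In the nitrogen list 4 of 8 measured members were enriched and the median difference was 3.04. NRT1.1 (AT1G12110), a nitrate transporter and sensor, was at 75.3 FPKM in epidermis, 4.11 in cortex, 1.95 and 0.444 in endodermis lines 1 and 2, 0.33 in stele and 15.3 in columella root cap. AMT1;1 (AT4G13510), a high-affinity ammonium transporter, was at 146, 33, 62.5, 36.4, 1.26 and 40.6 FPKM in the same order. Both had their lowest value in stele, while AMT1;1 was also high in the 4 remaining libraries. AMT1;3 (AT3G24300), a further ammonium transporter, was at 14.9 FPKM against at most 2.75. LHT1 (AT5G40780), which imports amino acids, was at 127 against 21.8. NRT3.1 (AT5G50200), a partner protein of nitrate transporters, was nearly equal in epidermis and columella root cap, at 37.1 and 35.6 FPKM, and at most 1.21 elsewhere. The high-affinity nitrate transporter NRT2.1 (AT1G08090) was at 0.018 FPKM in epidermis and listed at 0 in the other 5 libraries.

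In the phosphate and sulfate list 3 of 6 measured members were enriched and the median difference was 2.98. PHT1;1 (AT5G43350), a phosphate transporter, was at 19.5 FPKM in epidermis against at most 0.642, and PHT1;4 (AT2G38940) at 26.1 against 1.99. PHT1;2 and PHT1;3, tandem copies of PHT1;1, were at 0.0506 and 0 FPKM, and the split of reads among these copies is uncertain. SULTR1;2 (AT1G78000), the main sulfate importer, was at 91.3 FPKM in epidermis, 3.89 in cortex, 3.06 and 0.351 in the endodermis lines, 0.346 in stele and 19 in columella root cap. PHO1 (AT3G23430), which exports phosphate to the xylem, was the only list member below every other library, at 0.411 FPKM against 0.752 to 11.8. PAP7 (AT2G01880), a purple acid phosphatase chosen after its values were seen, was at 108 FPKM against at most 6.22.

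Potassium, boron and proton transport had 2 of 10 measured members enriched and a median difference of 1.19. NIP5;1 (AT4G10380), a boric acid channel, was at 75.2 FPKM in epidermis against 34.9 in columella root cap and at most 18.3 elsewhere. AHA7 (AT3G60330), a proton pump, was at 50.8 against at most 1.83. AKT1 (AT2G26650), a potassium channel, was lower in epidermis (23.1 FPKM) than in columella root cap (52.4). KC1 (AT4G32650), its silent partner subunit, was at 38.9 against 25.4 FPKM in columella root cap.

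Iron uptake genes split by library. FIT (AT2G28160), the bHLH regulator of iron uptake, was at 149 FPKM in epidermis, 6.24 in cortex, 25.8 and 5.45 in the endodermis lines, 0.648 in stele and 15.5 in columella root cap. IRT2 (AT4G19680), an iron transporter, was at 46.5 FPKM against at most 2.61. These were the 2 enriched members of 9 measured, with a list median of 1.63. FRO2 (AT1G01580), the ferric reductase, was at 8.74 FPKM in epidermis and 61.2 in columella root cap, and IRT1 (AT4G19690), the main iron importer, at 0.214 against at most 0.147. PDR9 (AT3G53480), an exporter of phenolic compounds, was nearly equal in epidermis and columella root cap, at 370 and 364 FPKM. Zinc transporters named after their values were seen were also high, with ZIP2 (AT5G59520) at 43.8 FPKM against at most 2.9 and ZIP3 (AT2G32270) at 49.7 against 5.9.

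**Figure D3:**
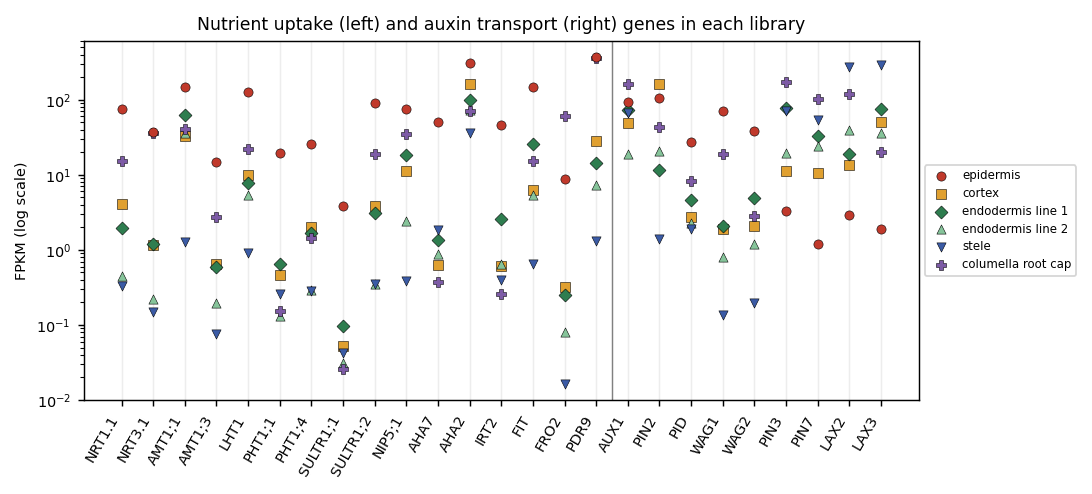
FPKM in each of the 6 libraries (log scale) for transporter and uptake genes, with epidermis as one of the 6 symbols and colours. Epidermis is highest for NRT1.1 (75.3), SULTR1;2 (91.3) and FIT (149), and columella root cap is highest for FRO2 (61.2).

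Water channels gave the same direction. Of 24 measured aquaporins 6 were enriched (25%) and the median difference was 1.21, although their summed level was highest in endodermis line 1, at 17213 FPKM against 7977 in epidermis. NLM1 (AT4G19030), of the nodulin-like class, was at 496 FPKM in epidermis, 19.5 in cortex, 21.6 and 7.94 in the endodermis lines, 2.21 in stele and 40.9 in columella root cap. TIP2;2 (AT4G17340), a vacuolar water channel, was at 461 FPKM against 203 in endodermis line 1. The plasma membrane channels PIP1;5 (AT4G23400) and PIP2;4 (AT5G60660) were at 241 and 260 FPKM, with maxima elsewhere of 78.9 and 77.1.

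Chemical defence formed a large group outside hair growth. In the list of glucosinolate breakdown and transport 6 of 13 measured members were enriched and the median difference was 3.12. Myrosinases cut glucosinolates, the sulfur-rich defence compounds of the cabbage order, and TGG5 (AT1G51470) and TGG4 (AT1G47600), the root myrosinases, had the largest margins of all genes. TGG5 was at 146 FPKM in epidermis, 1.56 in cortex, 0.775 and 0.195 in endodermis lines 1 and 2, 0.0608 in stele and 0.796 in columella root cap. TGG4 was at 131, 1.69, 0.502, 0.285, 0.0955 and 0.919 FPKM in the same order. The pair are close copies, so the split between them is uncertain, but epidermis was far above the other libraries for each. The leaf myrosinases TGG1 (AT5G26000) and TGG2 (AT5G25980) were listed at 0 in all 6 libraries.

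PEN2 (AT2G44490), an atypical myrosinase that acts in immunity, was at 88.6 FPKM in epidermis, 7.21 in cortex, 6.81 and 2.29 in the endodermis lines, 0.236 in stele and 28.8 in columella root cap. The nitrile specifier proteins direct glucosinolate products to nitriles. NSP3 (AT3G16390) was at 40.5 FPKM against at most 1.2, NSP4 (AT3G16410) at 153 against 29.7, and NSP1 (AT3G16400) at 43.7 against 22.7, just under the 2-fold margin. Nitrilases, which act on nitriles, were lower. NIT1 (AT3G44310), NIT2 (AT3G44300) and NIT3 (AT3G44320) were at 12.1, 3.69 and 67.5 FPKM in epidermis and at 168, 182 and 290 in cortex.

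Genes of indole glucosinolate synthesis were less high in epidermis than the list of glucosinolate breakdown and transport. Of 13 measured synthesis genes 1 was enriched and the median difference was 0.19, which was -0.42 without stele and -0.02 without cortex. MYB34 (AT5G60890), a regulator of the pathway, was at 3.62 FPKM in epidermis, 36.3 in cortex, 57.2 and 85.4 in the endodermis lines, 6.75 in stele and 7.81 in columella root cap. CYP83B1 (AT4G31500), an early enzyme, was at 5.24, 27.6, 29.4, 84.9, 2.87 and 28.6 FPKM in the same order. Endodermis line 2 was highest for both. The enriched member was CYP81F3 (AT4G37400), which modifies the indole ring, at 161 FPKM against at most 45.6. Its relative CYP81F4 (AT4G37410) was at 204 FPKM in epidermis and 1059 in columella root cap.

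Genes of the ER body, a rod-shaped compartment that stores beta-glucosidases, were then described as a list added after values were seen. Of 12 measured members 8 were enriched, 11 stood above every other library and the median difference was 3.39. PYK10 (AT3G09260), the main root beta-glucosidase of these bodies, was at 2033 FPKM in epidermis, 363 in cortex, 184 and 104 in the endodermis lines, 17.9 in stele and 408 in columella root cap. NAI2 (AT3G15950), needed to form the bodies, was at 492, 107, 52.4, 52.8, 4.07 and 110 FPKM in that order. Stele was lowest for both. PBP1 (AT3G16420), which binds PYK10, was at 1208 FPKM against at most 246, and MEB2 (AT5G24290), a membrane protein of the bodies, at 39.5 against 11.7. NAI1 (AT2G22770), the bHLH regulator of these genes, was higher in columella root cap (136 FPKM) than in epidermis (84.8). The beta-glucosidases BGLU21 (AT1G66270) and BGLU22 (AT1G66280) were at 848 and 776 FPKM in epidermis, with 594 of the second in columella root cap.

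**Figure D4:**
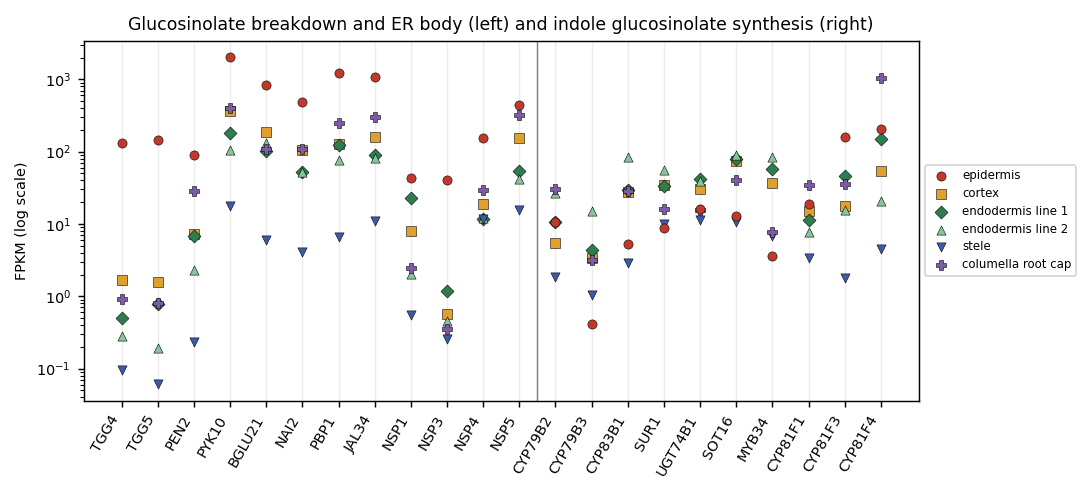
FPKM in each of the 6 libraries (log scale) for genes of glucosinolate breakdown, ER bodies and indole glucosinolate synthesis. Epidermis is the highest symbol for TGG5 (146), TGG4 (131), PEN2 (88.6) and PYK10 (2033), and not for MYB34 (3.62) or CYP83B1 (5.24).

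Triterpene genes of root gene clusters were high in epidermis and, at a lower level, in cortex. The list also held a diterpene gene, TPS08. Of its 7 measured members 3 were enriched and the median difference was 3.33. THAS1 (AT5G48010), thalianol synthase, was at 170 FPKM in epidermis, 47.2 in cortex, 12.5 and 2.68 in the endodermis lines, 0.964 in stele and 9.66 in columella root cap. THAD (AT5G47990), a later enzyme of the cluster, was at 337, 123, 31.5, 12.5, 1.65 and 30.1 FPKM, and THAH (AT5G48000), which missed the 2-fold margin, at 132, 98.8, 19.1, 8.67, 0.861 and 10.7. Cortex ranked next after epidermis for all 3. MRN1 (AT5G42600), marneral synthase, was at 104 FPKM against 16.7 in cortex, and the cluster partner CYP71A16 (AT5G42590) at 112 against 67.6. PEN1 (AT4G15340), another oxidosqualene cyclase, was at 0.588 FPKM in epidermis and 21.7 in endodermis line 1. SQP2 (AT5G24140), a squalene monooxygenase named after its values were seen, was at 126 FPKM against at most 4.24.

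Genes tied to salicylate, a defence hormone, were described in a further list added after values were seen. Of 17 measured members 7 were enriched and the median difference was 1.67. UGT74F2 (AT2G43820), which attaches glucose to salicylate, was at 343 FPKM in epidermis, 14.9 in cortex, 14.7 and 0.502 in the endodermis lines, 0.623 in stele and 1.07 in columella root cap. DMR6 (AT5G24530), a salicylate hydroxylase, was at 47 FPKM against at most 6.17. WRKY70 (AT3G56400), WRKY54 (AT2G40750) and WRKY38 (AT5G22570), transcription factors of the salicylate response, were at 40, 17.3 and 93.1 FPKM, with maxima elsewhere of 2.97, 0.81 and 10.1. NIMIN2 (AT3G25882), which binds the salicylate receptor NPR1, was at 38.5 against 9.66. The synthesis gene ICS1 (AT1G74710) was at 1.86 FPKM against 8 in cortex, and the classical response gene PR1 (AT2G14610) was listed at 0 in every library. Immune receptors and jasmonate genes had no enriched member among 11 and 13 measured, with medians 1.16 and 1.49 above that of all measured genes. Columella root cap was higher still. The median levels there were 39.6 and 119 FPKM, against 34 and 76.4 in epidermis.

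WRKY factors as a family had 17 of 51 measured members enriched (33.3%) and 27 above every other library, with a median difference of 1.83. Their summed level was 1736 FPKM in epidermis, 1482 in columella root cap, 1255 in endodermis line 1 and 215 to 357 in the other 3 libraries. WRKY75 (AT5G13080), known from phosphate starvation and hair development, was at 24.1 FPKM against at most 3.19. WRKY72 (AT5G15130) was at 34.7 against 3.58. A W-box stood before 7 of the 17 enriched WRKY genes (41.2%), against 37.5% of all enriched genes. With windows of 500 bases these shares were 47.1% and 56.4%. MYB factors by annotated name had 5 of 96 enriched (5.21%), close to the share of all genes.

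Wall proteins made up many of the other enriched genes. Class III peroxidases, which cross-link or loosen walls, had 14 of 50 enriched (28%), although their summed level was highest in endodermis line 1, at 8486 FPKM against 3891 in epidermis. The peroxidase AT5G17820 was at 736 FPKM in epidermis, 7.6 in cortex, 17.4 and 3.12 in the endodermis lines, 5.23 in stele and 3.79 in columella root cap. Xyloglucan endotransglucosylases, which cut and rejoin wall xyloglucan, had 8 of 21 enriched (38.1%) and 1 depleted. XTH14 (AT4G25820), known from hairs, was at 198 FPKM against at most 7.53, and XTH18 (AT4G30280) and XTH19 (AT4G30290), neighbours in the genome, were at 377 and 427 against at most 35.1 and 37.3. The depleted member XTH15 (AT4G14130) was at 4.55 FPKM in epidermis, 347 in endodermis line 1 and 19.7 to 39.5 elsewhere. Expansins had 4 of 21 enriched (19%), among them EXPA17 (AT4G01630) at 193 FPKM against 7.32.

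Extensins and proline-rich proteins had 26 of 148 enriched (17.6%) and a median difference of -0.01. Below every other library stood 41 of them (27.7%), against 32.6% of all measured genes. The extensin genes AT1G23720 and AT3G28550 were at 1201 and 1115 FPKM, and next highest in endodermis line 1, at 43.8 and 41.1. Extensin repeats are alike among copies, so the values of single genes are uncertain. Cellulose synthases and cellulose synthase-like genes together had 6 of 28 enriched (21.4%), including CSLB02 (AT2G32620) at 20.3 FPKM against at most 0.163. Pectin methylesterases and their inhibitors had 7 of 49 enriched (14.3%), among them PME2 (AT1G53830) at 176 against 7.84. AGP3 (AT4G40090), an arabinogalactan protein, was at 363 FPKM against at most 13.9, while AGP13 (AT4G26320) was depleted, at 20.6 against 47.6 to 1046.

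**Figure D5:**
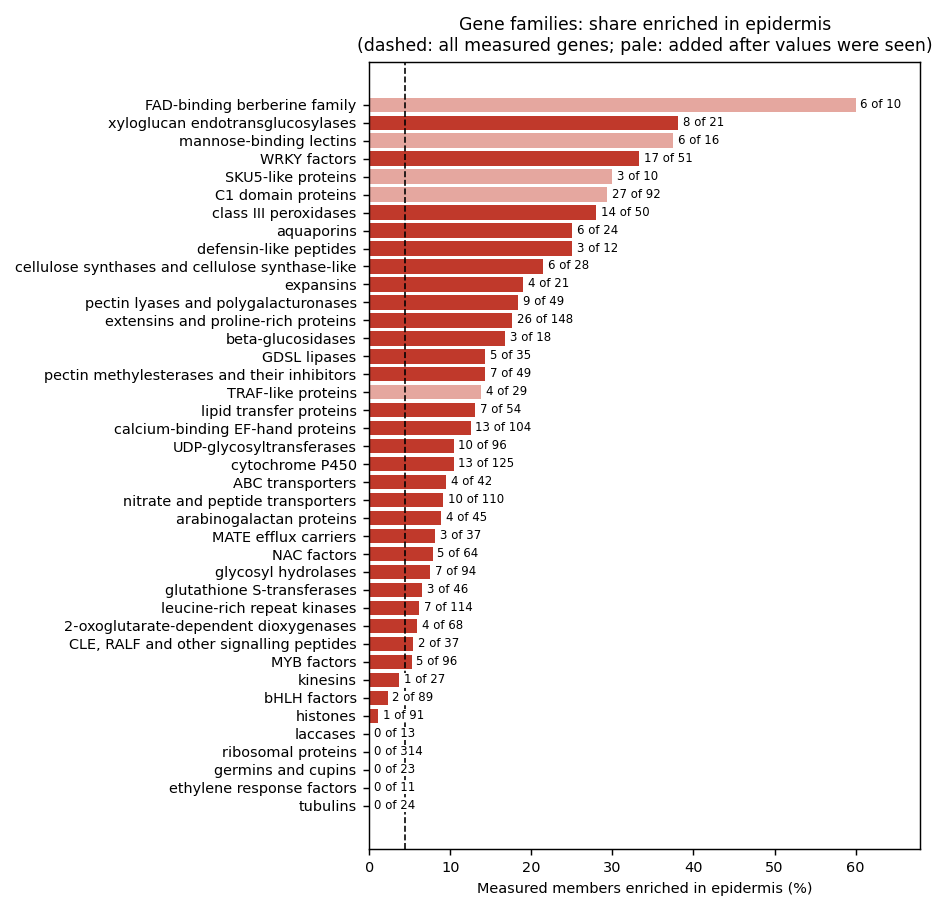
Share of measured members enriched in epidermis (%) for the gene families shown, each with at least 10 measured members, with counts beside the bars; the dashed line is the share over all measured genes (4.46%) and pale bars are families added after values were seen. The berberine family (60%), xyloglucan endotransglucosylases (38.1%), mannose-binding lectins (37.5%) and WRKY factors (33.3%) lie highest of those shown, and ribosomal proteins and tubulins are at 0.

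Further families were added after values were seen. Oxidases of the FAD-binding berberine family had 6 of 10 measured members enriched (60%), led by AT5G44380 at 297 FPKM in epidermis, 22.4 in cortex, 23.4 and 4.22 in the endodermis lines, 1.44 in stele and 7.57 in columella root cap. Mannose-binding lectins had 6 of 16 enriched (37.5%), with AT1G52060 at 704 FPKM against 83.6 in columella root cap and at most 16.6 elsewhere. Cysteine- and histidine-rich C1 domain proteins, a large plant family, had 27 of 92 enriched (29.3%) and 66 above every other library, with a median difference of 1.44. Their levels were modest, and the family summed to 638 FPKM in epidermis against 76.8 to 230 in the other libraries. AT5G43520 was the member with the largest margin, at 26.4 FPKM against at most 0.762. Many C1 domain genes are close copies of one another, so single values are uncertain.

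Enriched genes often lay side by side in the order of measured genes. Of 876 enriched genes placed on the RefSeq annotation, 177 (20.2%) had another enriched gene next to them in this order. Of 19498 measured genes 1695 (8.69%) had an enriched neighbour. Loci that were not measured were skipped, so neighbours need not be adjacent in the annotation. Enriched genes formed 82 runs of 2 or more genes and 10 of 3 or more. The longest run held 5 genes on chromosome 3, from CEP2 (AT3G48340), a cysteine endopeptidase at 926 FPKM against 240 in columella root cap, to BT2 (AT3G48360), a BTB scaffold protein, at 51.8 FPKM against 25.2. Several runs were tandem copies, such as the berberine genes AT1G30700, AT1G30720 and AT1G30730 at 69.5, 10.3 and 59 FPKM and the glucosyltransferase genes UGT75B2 (AT1G05530) and UGT75B1 (AT1G05560) at 51.1 and 58.2. The part of shared reads between neighbours was not tested.

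Genes of polar growth were mixed. Of 9 measured ROP and actin genes 2 were enriched and 2 stood below every other library, with a median difference of 0.84. The enriched members were ADF8 (AT4G00680) and ADF11 (AT1G01750), actin depolymerizing factors, at 128 and 192 FPKM, with maxima elsewhere of 5.03 and 10.7. The abundant actins ACT2 (AT3G18780) and ACT8 (AT1G49240) were at 995 and 755 FPKM in epidermis, with ACT2 higher in stele, at 1429. ROPGEF3 (AT4G00460), a ROP activator that marks the hair site, was at 39.7 FPKM against at most 1.56. MAP18 (AT5G44610), a protein that binds microtubules, was at 94.4 FPKM against 4.06, ACA9 (AT3G21180), a calcium pump, at 39.2 against 0.854, and CNGC14 (AT2G24610), a calcium channel, at 68.2 against 22.3. These 4 genes were chosen after their values were seen. Calcium-binding EF-hand proteins had 13 of 104 measured members enriched (12.5%) and a median difference of 0.32.

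Hormone genes gave both directions. Of 16 measured auxin transport genes 3 were enriched and 6 depleted, with a median difference of -0.68. The enriched members were AGC kinases that act on PIN carriers, while D6PK, a further such kinase of the list, was not enriched. WAG1 (AT1G53700) was at 70.1 FPKM in epidermis, 1.9 in cortex, 2.09 and 0.81 in the endodermis lines, 0.136 in stele and 18.8 in columella root cap. WAG2 (AT3G14370) was at 38.7 FPKM against at most 4.97, and PID (AT2G34650) at 27.3 against 8.36. All 6 depleted members were carriers, among them LAX3 (AT1G77690). ABCB19 (AT3G28860), an auxin exporter, was at 25.3 FPKM in epidermis against at least 72.9. Of the 16 list members 8 stood below every other library, against 32.6% of all measured genes. Not every carrier was low: ABCB4 (AT2G47000) was at 90 FPKM in epidermis against at most 53.6. PIN2 (AT5G57090), the carrier of the outer layers, was at 106 FPKM in epidermis, 160 in cortex, 11.7 and 20.9 in the endodermis lines, 1.4 in stele and 42.8 in columella root cap.

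In the brassinosteroid list none of 12 measured members was enriched and 1 was depleted, with a median difference of 0.14. The depleted member was CPD (AT5G05690), a synthesis enzyme, at 0.516 FPKM in epidermis, 16.9 in cortex, 23 and 10.9 in the endodermis lines, 152 in stele and 10.8 in columella root cap. BAS1 (AT2G26710), which inactivates the hormone, was at 26.2 FPKM against 21 in columella root cap. CYP707A1 (AT4G19230), which breaks down abscisic acid, was at 137 FPKM against at most 10.8. IAA1 (AT4G14560), an auxin response repressor chosen after its values were seen, was at 148 against 18.9.

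Among all 190 depleted genes the largest margin was that of AT5G48480, at 0.897 FPKM in epidermis, 19.2 in cortex, 22.1 and 57.6 in the endodermis lines, 199 in stele and 50.5 in columella root cap. ELIP1 (AT3G22840), a light-induced chloroplast protein, was at 1.45 FPKM against at least 18.2, and PDF2.5 (AT5G63660), a defensin, at 0.79 against 9.63 to 486. ADS2 (AT2G31360), a fatty acid desaturase, was at 13.8 against at least 83.8. In a clock list added after values were seen, with a median of -0.31 (0.05 with size factors), 2 of 12 members were depleted, LHY (AT1G01060) at 6.72 FPKM against at least 28.4 and CCA1 (AT2G46830) at 5.45 against at least 19. These MYB-like factors are morning genes of the clock, and the hour of sampling is not given in the sources used here.

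Genes of DNA replication and of DNA methylation were then examined. Of all measured genes 32.6% stood below every other library. In the S phase list 9 of 16 members did, with a median difference of -1.20 and none enriched or depleted. The low level was shared: this list summed to 156 FPKM in epidermis, 162 in endodermis line 1 and 189 in columella root cap. The sums were 398 in cortex, 508 in endodermis line 2 and 709 in stele. The G2 and M phase list had 0 of 14 below every other library and a median of -0.72. In RNA-directed DNA methylation, where small RNAs guide new methylation, 13 of 19 members stood below every other library and the median was -1.12. Its 1 depleted member, SUVH9 (AT4G13460), which helps recruit the silencing machinery, was at 2.82 FPKM against 10.4 to 14. In DNA demethylation 6 of 7 measured members did, with a median of -1.09. ROS1 (AT2G36490), a DNA glycosylase that removes methylated bases, was at 2.4 FPKM in epidermis, 7.71 in cortex, 3.06 and 10.2 in the endodermis lines, 5.67 in stele and 8.14 in columella root cap. Endodermis line 1 came next above epidermis for ROS1. Genes that maintain DNA methylation had 2 of 9 members below every other library and a median of -0.83. Their sum was 50.7 FPKM in epidermis and lower in endodermis line 1, at 47.8. Endoreduplication genes had 1 of 10 below every other library and a median of -0.05.

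Ribosomal protein genes, by annotated product, had none of 314 measured members enriched or depleted and a median of -0.69. Below every other library stood 55 of them (17.5%), against 32.6% of all measured genes. The family summed to 42151 FPKM in epidermis, 79776 in cortex, 39336 and 112927 in endodermis lines 1 and 2, 129346 in stele and 32305 in columella root cap. By this sum epidermis, endodermis line 1 and columella root cap formed the low side. Tubulins had 10 of 24 members below every other library (41.7%, against 32.6% of all measured genes). Their summed level was 1779 FPKM in epidermis, 1489 in columella root cap, 1949 in endodermis line 1 and 3480 to 3694 in the other 3 libraries.

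Columella root cap set the limit for several groups. Without that library the lateral root cap and root cap list had 10 enriched members in place of 0, and WRKY factors 26 in place of 17. Among enriched genes the median level in columella root cap was 6.88% of that in epidermis, and in endodermis line 1 it was 8.71%. For the 12 enriched hair growth genes these medians were 0.589% and 3.17%. For the enriched ER body genes the columella root cap median was 21.3%. The part of lateral root cap cells in the epidermis library was not tested.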

How the data were processed

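Messenger RNA of sorted root cells was sequenced in 6 libraries. The values deposited by the authors are FPKM, 1 file per library. The tools were Bowtie 0.12.7, TopHat 1.3.1 and Cufflinks 2.0.2, on the build TAIR10, per the submitters' processing notes. With settings, strandedness, read numbers and the treatment of reads with several matches not given in the sources used here, values of overlapping genes and near-identical copies are uncertain. An exact 0 can be a failed estimate. From loci under 0.5 FPKM in both libraries, 1 read was worth, relative to epidermis, roughly 1.49 times as much FPKM in cortex, 0.949 and 1.13 times in endodermis lines 1 and 2, 0.917 times in stele and 1.17 times in columella root cap. The summed FPKM were 576322 to 642028 and 15999 to 17096 loci had at least 1 FPKM. No batch is labelled.

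Libraries were grouped by the labelled cell type and compared as log2(FPKM + 1), which understates differences of low genes, with a rule of size and no test. Identifiers were matched to RefSeq TAIR10.1 (32807 of 33554) for names, products, neighbours and promoters. The 33 lists (368 entries), 40 families by annotated product name, 3 added lists and 5 added families were chosen with earlier results of these data known. Named genes were the 25 largest margins above and 15 below, list members called, the markers and 3 members per family, of which those with a described role or result are given. Other named genes are examples chosen after their values were seen. The list entry ESM1 was not analysed here. Alternatives covered the pseudocount, filters, margin, scaling, promoter window and left-out libraries. The computations were tested on simulated data, in Python 3.11.15 with pandas 2.3.3, numpy 2.4.6, Biopython 1.88 and matplotlib 3.10.9.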

Additional observations from a re-analysis of the deposited data

How the results depend on the processing

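Of 878 enriched and 190 depleted genes, a 4-fold margin left 491 and 32. Without the columella root cap library 1381 were enriched and 407 depleted, an alternative that removes the closest library for many genes. Leaving out 1 endodermis line gave 884 to 1217 enriched and 216 to 435 depleted genes, the higher counts without line 1. Averaging the lines gave 322 depleted genes and no minimum on the higher side 330. Size factors gave 88 depleted genes, all among the 190, and quantile normalization 125, of which 123 were. The cause of these shifts was not tested. All 878 enriched genes were among the 1172 called with size factors, 876 among the 1018 with TPM and 864 among the 959 with quantile normalization. Among list counts, cell fate regulators went from 3 enriched to 6 with size factors or without cortex. Triterpene and diterpene genes went from 3 to 5 without cortex. Iron uptake went from 2 to 4 and immune receptors from 0 to 4 without columella root cap. Jasmonate genes went from 0 to 2 without endodermis line 1. The sign of the list median turned, outside the cases given with the results, for indole glucosinolate synthesis over members with at least 5 FPKM (-0.12), for endoreduplication from -0.05 to at most 0.34 in 7 settings, and, when the library of that cell type or the columella root cap was left out, for cortex (0.15), columella (0.66) and stem cell niche (0.17) genes. With windows of 500 bases the root hair element stood before 4.61% of enriched and 1.46% of measured genes, and the W-box before 56.4% and 44.7%. No paired analysis was possible because no pairing of libraries is labelled and epidermis has a single library. A single epidermis library and unknown read numbers limit every value, and low FPKM are the least certain.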
